A study of Danio rerio with 14 samples.

Results

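The genes described here encode enzymes that handle reactive oxygen species and thiols in zebrafish embryos: superoxide dismutases, catalase, glutathione peroxidases, peroxiredoxins, thioredoxins and their reductase, glutaredoxins, glutathione transferases, the enzymes of glutathione synthesis, and the Keap1 and Nrf2 family regulators with their classic targets. They were chosen by gene symbol, with symbols beginning with gst, gpx, prdx, txn, glrx, sod, gclc, gclm, hmox, nqo1, srxn, keap1 or nfe2l, together with cat, gsr and gss, in lower case. The rule found 51 genes among the 14077 listed in any of the 3 deposited tables. In the 0 yr brood 51 were listed at 53 mGy/h and 48 at 8.7 mGy/h, in the 1 yr brood 47, and 46 were listed in all 3 tables. The table at 53 mGy/h alone lists nfe2l2b and gstk1, while hmox1a is absent from the table at 8.7 mGy/h (0 yr), and keap1a and gstt1a from that at 1 yr. The rule also takes in genes that share only a prefix: txnl4a and txnl4b, whose proteins belong to the splicing machinery, and gstcd, named for a glutathione transferase C-terminal domain.

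Superoxide dismutases turn superoxide into hydrogen peroxide, and catalase, glutathione peroxidases and peroxiredoxins remove the peroxide. Glutathione and thioredoxin supply the electrons and are themselves recharged by reductases that use NADPH. The transcription factor Nrf2, held in check by Keap1, switches on many of these genes under oxidative stress, and the egg supplies the early zebrafish embryo with mRNA for a large number of them before its own genome becomes active.

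The samples were F1 embryos of AB wild type zebrafish taken 5.5 hours after fertilization, 100 embryos in each. In the groups called 0 yr, parents exposed to gamma radiation during gametogenesis at 8.7 or 53 mGy/h, or left unexposed, were bred 1 month after exposure. In the groups called 1 yr, unexposed parents and those of 8.7 mGy/h were bred again after 1 year. There were 3 libraries in each group except the 0 yr control, which had 2, and no label ties a library to particular parents or a breeding day.

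All levels are the authors' values for a whole group in RPM, reads scaled to a fixed library total, and the log2 difference is the exposed minus the control log2 RPM. The tables hold no value per library, so no spread between replicates can be given beside a level, and replicates enter only as far as the authors' FDR, an adjusted p over all genes of a table, takes them into account. A gene is said to have risen or fallen where that FDR was under 0.05. The 0 yr comparisons share the same control libraries. Whole embryos were sequenced, so fewer cells of a type and less RNA per cell cannot be told apart.

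Geometric mean depth was at least 22.6 to 27.7 megareads per group, and counting error alone gave the antioxidant genes a median standard error of 0.05 to 0.06 on the log2 scale. Of 14 listed markers of the gastrula and the extraembryonic layers, 14 fell at 53 mGy/h (0 yr) and none was called at 8.7 mGy/h (0 yr), and at 1 yr 12 of 15 rose. Their summed level was 1499 RPM in the 0 yr control, 1587 RPM at 8.7 mGy/h and 309 RPM at 53 mGy/h, and 2543 and 3130 RPM in the control and exposed groups at 1 yr. Maternal transcripts were called in both directions, 8 up and 5 down of 20 at 53 mGy/h and 5 up and 9 down of 20 at 1 yr. Their median log2 difference was 0.42 at 53 mGy/h and -0.42 at 1 yr. That of the gastrula and extraembryonic markers was -2.26 and 0.33 in the same order. Over all genes, 22.1% rose and 21.5% fell at 53 mGy/h, and 20.0% rose and 22.4% fell at 1 yr. At 8.7 mGy/h (0 yr) 0.294% of all genes were called. Of 20 markers of blood, gonad and later tissues, 4 or fewer were listed in a table and none was called. A difference in stage and a change in these genes at the same stage cannot be told apart, and their part in the differences of antioxidant genes was not tested.

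At 53 mGy/h (0 yr) the antioxidant genes that were called changed in both directions. The largest rises were those of txndc16 and nfe2l2b, and the largest fall was that of gstal. The cytosolic superoxide dismutase gene sod1, the thioredoxin reductase gene txnrd1, the peroxiredoxin gene prdx2 and the glutathione transferase gene gstm rose, while the catalase gene cat and the mitochondrial thioredoxin gene txn2 fell. Of 51 genes, 12 were called, 23.5% against 43.6% of all genes in the table. In number 7 rose, 13.7% against 22.1%, and 5 fell, 9.80% against 21.5%. The median log2 difference of the 51 was 0.09, beside 0.12 for all 13714 genes.

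At 8.7 mGy/h (0 yr) none of the 48 genes was called by the deposited FDR, where 0.294% of all genes were (0.151% up and 0.143% down). At an FDR under 0.1 there was none either, beside 0.407% of all genes. The smallest FDR among them in the authors' deposited table was 0.444, for prdx3, and no unadjusted p is given there. The log2 differences lay between -0.50 (gstt1a) and 0.41 (nqo1), with a median of 0.02 beside -0.04 for all genes. Differences from the value around which uncalled genes were centred were within 2 counting standard errors in 25 of the 48 genes and in 53.2% of all genes.

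At 8.7 mGy/h (1 yr) sod1, txnrd1 and gstm fell. The glutathione peroxidase gene gpx8, the peroxiredoxin gene prdx1 and the glutathione transferase gene gstp1 also fell, and the quinone reductase gene nqo1 rose. Among the antioxidant genes the largest fall was that of txndc16 and the largest called rise that of nqo1. Of 47 genes, 13 were called, 27.7% against 42.4% of all genes in the table. In number 5 rose, 10.6% against 20.0%, and 8 fell, 17.0% against 22.4%. The median log2 difference was -0.08, beside -0.09 for all 12502 genes.

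Stricter and looser limits moved some of these counts, and the background with them. The falls at 53 mGy/h numbered 9 at an FDR under 0.1 (24.2% of all genes), 2 with at least a 1.5-fold difference as well as an FDR under 0.05 (16.1%) and 1 with at least 2-fold (12.4%). The rises at 1 yr numbered 3 at an FDR under 0.01 (14.1%), 3 with at least 1.5-fold (4.29%) and 0 with at least 2-fold (1.04%), and the falls at 1 yr numbered 2 with at least 2-fold (4.78%).

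**Figure D1:**
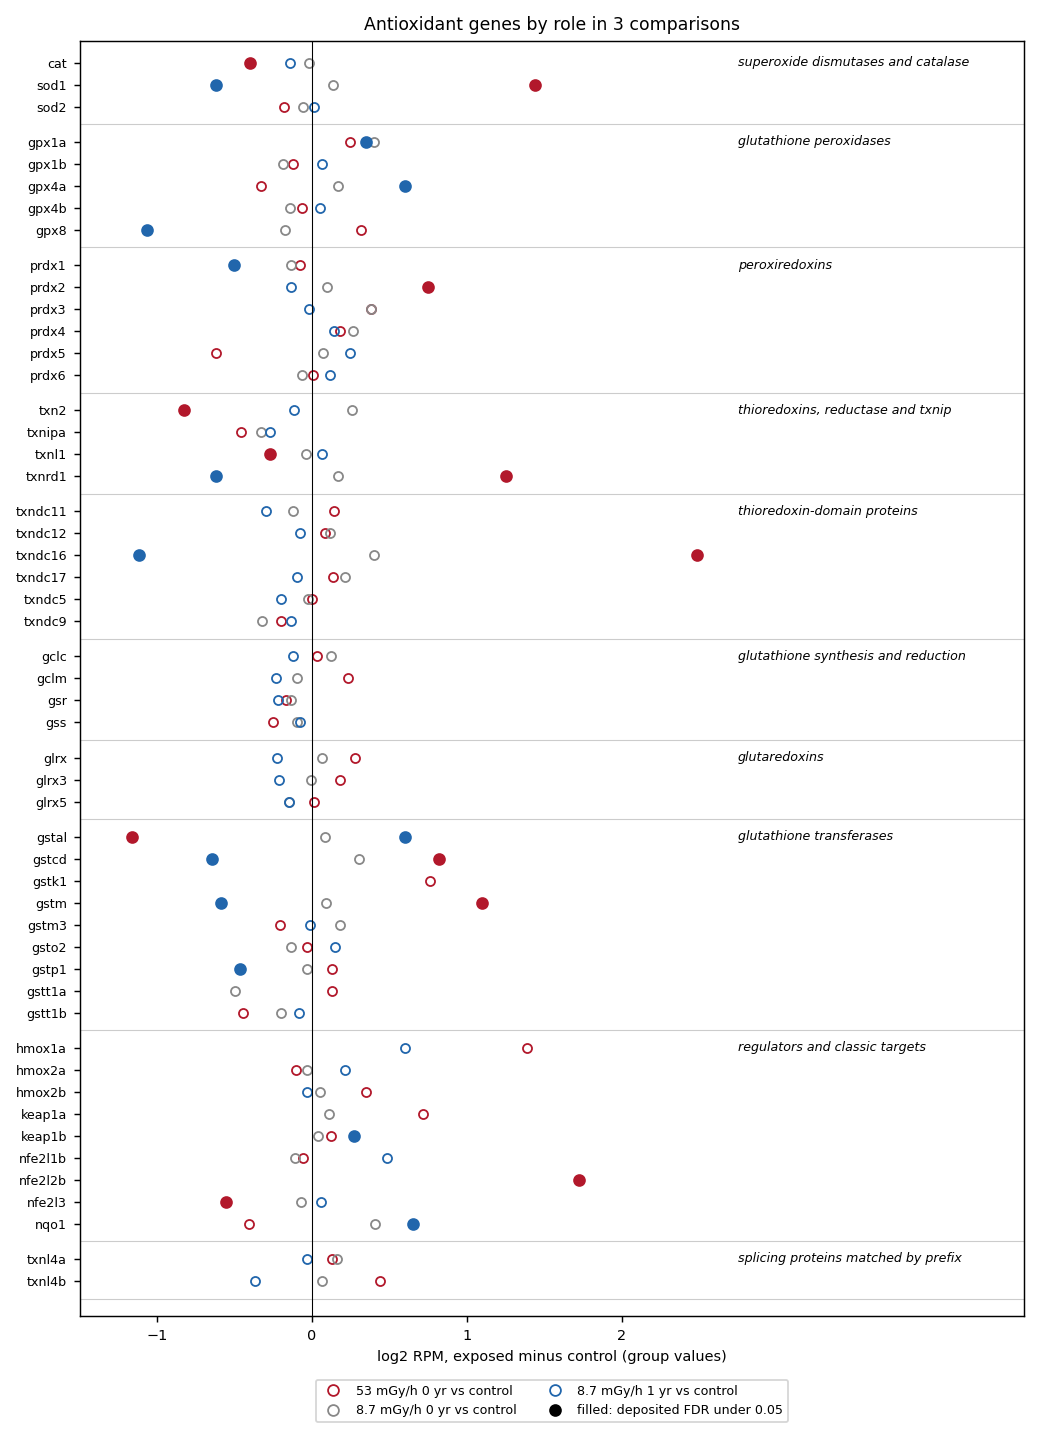
Log2 RPM of exposed minus control embryos (horizontal axis) for each antioxidant gene (rows, grouped by role) in the comparisons of the 0 yr brood at 53 mGy/h (red) and 8.7 mGy/h (grey) and of the 1 yr brood at 8.7 mGy/h (blue). Filled points have a deposited FDR under 0.05. The filled red points reach from -1.16 (gstal) to 2.49 (txndc16), no grey point is filled, and the filled blue points reach from -1.12 (txndc16) to 0.65 (nqo1).

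The size of a difference did not decide a call by itself. At 53 mGy/h the smallest log2 difference among the genes that rose was 0.75 (prdx2), and the smallest in size among those that fell was -0.27 (txnl1). Larger differences that were not called included hmox1a at 1.39, prdx5 at -0.62 and txnipa at -0.46. The control levels of hmox1a and prdx5 were low, at 0.78 and 1.62 RPM. At 1 yr keap1b was called at 0.27 and txnipa was not called at -0.27. Over all genes, those with an FDR above 0.9 had a median log2 difference of 0.12 at 53 mGy/h and -0.09 at 1 yr, so genes furthest from a call were centred off 0 on the RPM scale, in opposite directions.

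**Figure D2:**
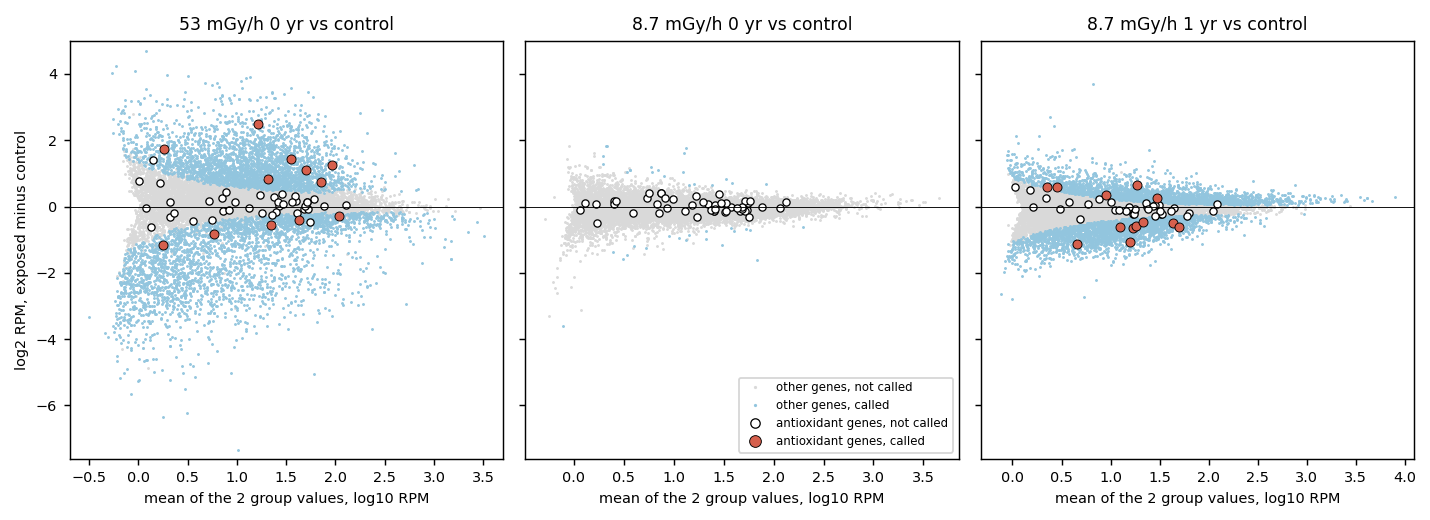
Log2 RPM of exposed minus control embryos against the log10 of the mean of the 2 group values in RPM, in 3 panels, 1 per comparison. Small points are all other genes, blue where called. Large points are antioxidant genes, red where called, and these lie between log2 differences of -1.16 and 2.49 at 53 mGy/h and between -1.12 and 0.65 at 1 yr. In the outer panels most uncalled genes lie in a band that narrows as the level rises.

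Of the superoxide dismutase and catalase genes, sod1 had the largest difference at 53 mGy/h and at 1 yr. It stood at 18.9 RPM in the 0 yr control, 20.8 RPM at 8.7 mGy/h and 51.2 RPM at 53 mGy/h, a log2 difference of 1.44 at the higher dose rate, with an FDR of 2.86e-13 in the authors' deposited table. In the 1 yr brood it fell from 15.0 RPM in the control to 9.77 RPM at 8.7 mGy/h, a log2 difference of -0.62, with an FDR of 0.000673 in the authors' deposited table. The level at 53 mGy/h was the highest of the 5 groups and that at 8.7 mGy/h (1 yr) the lowest. Its span in GRCz10 is 25732682 to 25737741 on chromosome 10, with no other listed gene overlapping it.

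The mitochondrial dismutase gene sod2 was not called in any comparison. It stood at 43.7, 42.0 and 38.5 RPM in the control, 8.7 and 53 mGy/h groups at 0 yr and at 26.7 and 26.9 RPM in the control and exposed groups at 1 yr. Catalase, which breaks down hydrogen peroxide in peroxisomes, fell at 53 mGy/h from 49.01 to 37.14 RPM, a log2 difference of -0.40 with an FDR of 0.0011 in the authors' deposited table. At 8.7 mGy/h cat was at 48.4 RPM (0 yr) and, against a control of 43.9 RPM, at 39.8 RPM (1 yr), and neither was called. The dismutase genes sod1 and sod2 and cat thus gave 1 rise, 1 fall and 1 gene without a call at 53 mGy/h. Of all genes there, 22.1% rose and 21.5% fell.

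None of the 5 glutathione peroxidase genes was called at 53 mGy/h or at 8.7 mGy/h (0 yr), and at 1 yr 2 rose and 1 fell. Over all genes, 43.6% were called at 53 mGy/h and 0.294% at 8.7 mGy/h (0 yr), and at 1 yr 20.0% rose and 22.4% fell. The peroxidase gene that fell was gpx8, whose product is a membrane protein of the endoplasmic reticulum. It stood at 34.6, 30.6 and 43.1 RPM in the control, 8.7 and 53 mGy/h groups at 0 yr, and at 21.1 RPM in the control and 10.1 RPM in the exposed group at 1 yr. That difference of -1.06 on the log2 scale carries an FDR of 4.14e-14 in the authors' deposited table, the smallest of any antioxidant gene at 1 yr. The level at 8.7 mGy/h (1 yr) was the lowest of the 5 groups.

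The genes that rose at 1 yr were gpx1a, of the cytosolic selenoprotein peroxidases, from 7.97 to 10.1 RPM, and gpx4a, of the kind that reduces lipid peroxides, from 1.80 to 2.72 RPM. Their paralogues gpx1b (5.78 and 6.04 RPM) and gpx4b (30.5 and 31.6 RPM) were not called, and the difference between paralogues was not tested. Both genes that rose overlap other listed genes in the annotation, gpx1a with brk1 over 108357 bases on the same strand (and with tex264b on the opposite strand, not listed at 1 yr) and gpx4a with polr2eb over 4995 bases on the opposite strand. The log2 difference at 1 yr was 0.16 for brk1 and 0.32 for polr2eb, and polr2eb also rose. The libraries keep no strand, so reads from overlapping genes on opposite strands cannot be told apart.

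Of the 6 peroxiredoxin genes, prdx2 rose at 53 mGy/h, as did 22.1% of all genes, and prdx1 fell at 1 yr, as did 22.4%. Both encode cytosolic enzymes that reduce peroxide with electrons from thioredoxin. The prdx2 level was 53.0 RPM in the 0 yr control, 56.7 RPM at 8.7 mGy/h and 89.2 RPM at 53 mGy/h, and 33.4 and 30.4 RPM in the control and exposed groups at 1 yr. Its log2 difference of 0.75 at 53 mGy/h has an FDR of 6.93e-05 in the authors' deposited table. The prdx1 level was 54.7, 49.9 and 51.9 RPM in the control, 8.7 and 53 mGy/h groups at 0 yr, and fell from 50.8 to 35.8 RPM at 1 yr. This is a log2 difference of -0.50, with an FDR of 2.21e-05 in the authors' deposited table. The gene-name table pairs the ID listed as prdx2 with PRDX1, so the naming of this pair differs between sources.

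The other peroxiredoxin genes were not called. The mitochondrial prdx3 stood at 24.8 RPM in the 0 yr control and at nearly equal levels of 32.3 RPM at 8.7 mGy/h and 32.2 RPM at 53 mGy/h, and at 23.8 and 23.5 RPM in the control and exposed groups at 1 yr. The level of prdx6 was 49.2, 47.0 and 49.5 RPM in the control, 8.7 and 53 mGy/h groups at 0 yr and 21.9 and 23.8 RPM in the control and exposed groups at 1 yr. The log2 differences of prdx4, of the endoplasmic reticulum, lay between 0.14 and 0.27 and those of prdx5 between -0.62 and 0.24. No sulfiredoxin gene is analysed here.

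In the thioredoxin system the reductase gene txnrd1 rose and the mitochondrial thioredoxin gene txn2 fell at 53 mGy/h. The gene txnrd1 encodes the selenoprotein that recharges thioredoxin with NADPH, and its ID is paired with TXNRD3 in the gene-name table. It stood at 55.3, 62.2 and 132 RPM in the control, 8.7 and 53 mGy/h groups at 0 yr and at 60.2 and 39.2 RPM in the control and exposed groups at 1 yr. The log2 differences were 1.25 at 53 mGy/h and -0.62 at 1 yr, with FDRs of 8.98e-18 and 1.19e-07 in the authors' deposited table. The order of the 5 groups was that of sod1 at its ends, highest at 53 mGy/h and lowest at 8.7 mGy/h (1 yr). Its span in GRCz10 is 661726 to 688111 on chromosome 6.

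The mitochondrial thioredoxin gene txn2 fell at 53 mGy/h, from 7.49 to 4.23 RPM, a log2 difference of -0.82 with an FDR of 0.00645 in the authors' deposited table. It was at 8.97 RPM at 8.7 mGy/h (0 yr) and at 12.6 and 11.7 RPM in the control and exposed groups at 1 yr. The gene listed as zgc:56493, whose ID the gene-name table pairs with TXN, lies outside the symbol rule. It stood at 85.6, 91.8 and 82.1 RPM in the control, 8.7 and 53 mGy/h groups at 0 yr, without a call in any comparison. Also outside the rule, the reductase gene listed as TXNRD2 (1 of 2) was at 1.65, 1.41 and 2.67 RPM in the same order, without a call. The thioredoxin-like gene txnl1, linked to the proteasome, fell at 53 mGy/h from 118 to 98.1 RPM, and its FDR of 0.0433 is the closest to the threshold among the called genes of the authors' deposited table described here. The thioredoxin-binding txnipa was below its control in all 3 comparisons, with log2 differences of -0.46 at 53 mGy/h, -0.33 at 8.7 mGy/h (0 yr) and -0.27 at 1 yr, and was called in none. The lowest of its FDRs in the authors' deposited table was 0.0561, at 53 mGy/h.

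Among the 6 genes for thioredoxin-domain proteins, txndc16, whose product is a protein of the endoplasmic reticulum, was called at 53 mGy/h and at 1 yr and the other 5 were not called. Of all genes, 43.6% were called at 53 mGy/h, 0.294% at 8.7 mGy/h (0 yr) and 42.4% at 1 yr. The gene txndc16 stood at 4.93 RPM in the 0 yr control, 6.51 RPM at 8.7 mGy/h and 27.7 RPM at 53 mGy/h. At 1 yr it was at 6.26 and 2.88 RPM in the control and exposed groups. Its log2 differences of 2.49 at 53 mGy/h and -1.12 at 1 yr were the largest in size among the antioxidant genes in either table, and the FDRs in the authors' deposited table are 1.67e-26 and 0.000119. By size of difference the gene was number 708 of 13714 at 53 mGy/h and number 465 of 12502 at 1 yr.

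The span of txndc16 in GRCz10 is 14910168 to 14958451 on chromosome 17, minus strand, and the 815 bases at its 5′ end overlap the 5′ end of gpr137c on the plus strand. The gene gpr137c, which encodes a G protein-coupled receptor-like protein, had log2 differences of 2.83 at 53 mGy/h, 0.32 at 8.7 mGy/h (0 yr) and -1.16 at 1 yr, beside 2.49, 0.40 and -1.12 for txndc16, and was called where txndc16 was. It was at the higher level, with 12.04 RPM in the 0 yr control and 85.6 RPM at 53 mGy/h, on a scale not corrected for gene length. How many reads of txndc16 fall in the 815 shared bases was not tested.

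None of the genes for glutathione synthesis and reduction was called in any comparison. Over all genes, 43.6% were called at 53 mGy/h, 0.294% at 8.7 mGy/h (0 yr) and 42.4% at 1 yr. The catalytic subunit gene of glutamate-cysteine ligase, gclc, stood at 127, 138 and 130 RPM in the control, 8.7 and 53 mGy/h groups at 0 yr and at 116 and 107 RPM in the control and exposed groups at 1 yr. The modifier subunit gene gclm stood at 55.7, 52.2 and 65.5 RPM at 0 yr in the same order, and at 35.9 and 30.6 RPM at 1 yr. Over gclc, gclm, the glutathione synthetase gene gss and the reductase gene gsr, log2 differences lay between -0.25 and 0.23 at 53 mGy/h, between -0.14 and 0.12 at 8.7 mGy/h (0 yr) and between -0.23 and -0.08 at 1 yr. The lowest FDR of the 4 in the authors' deposited table was 0.0571, for gss at 53 mGy/h, where it was at 24.7 RPM in the control and 20.7 RPM in the exposed group.

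The glutaredoxin genes were not called either. Among all genes the shares called were 43.6% at 53 mGy/h, 0.294% at 8.7 mGy/h (0 yr) and 42.4% at 1 yr. Glutaredoxins use glutathione to reduce disulfides, and glrx3 and glrx5 serve iron-sulfur cluster metabolism. The level of glrx3 was 37.3, 37.2 and 42.2 RPM in the control, 8.7 and 53 mGy/h groups at 0 yr and 35.0 and 30.1 RPM in the control and exposed groups at 1 yr. The level of glrx5 was 26.8, 24.2 and 27.1 RPM at 0 yr in the same order, and 18.1 and 16.4 RPM at 1 yr. The log2 differences of the 3 glutaredoxin genes lay between 0.02 and 0.28 at 53 mGy/h and between -0.22 and -0.15 at 1 yr.

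Glutathione transferases attach glutathione to reactive compounds. Of 9 listed genes of this group 2 rose and 1 fell at 53 mGy/h, where 22.1% of all genes rose and 21.5% fell. Of 7 at 1 yr 1 rose and 3 fell, where 20.0% of all genes rose and 22.4% fell. These counts include gstcd, which shares only a prefix with the transferases and is among both the rises at 53 mGy/h and the falls at 1 yr. The mu-class gene gstm stood at 32.3, 34.4 and 69.2 RPM in the control, 8.7 and 53 mGy/h groups at 0 yr and at 22.0 and 14.6 RPM in the control and exposed groups at 1 yr. The ratio of exposed to control in the authors' deposited table is 2.14 at 53 mGy/h, with an FDR of 8.37e-10. At 1 yr the log2 difference was -0.59, with an FDR of 0.000518 in the authors' deposited table. The neighbouring gstm3 on chromosome 8, which starts at 25283033 where gstm ends at 25282662, was at 2.47 and 2.15 RPM in control and exposed embryos at 53 mGy/h and was not called. The gene listed as zgc:173994, whose ID is paired with GSTM3, lies inside the span of gstm on the same strand and was at 2.47 and 2.11 RPM there, so reads shared between these near copies are uncertain.

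The alpha-class gene gstal had the opposite pattern to gstm. It fell from 2.48 to 1.11 RPM at 53 mGy/h and rose from 2.28 to 3.46 RPM at 1 yr, log2 differences of -1.16 and 0.60, with 2.63 RPM at 8.7 mGy/h (0 yr). The level of 1.11 RPM corresponds to a geometric mean of at least 30.3 reads per library, and the FDRs in the authors' deposited table are 0.00596 and 0.0202. The gene gstcd stood at 14.9, 18.4 and 26.3 RPM in the control, 8.7 and 53 mGy/h groups at 0 yr and at 20.7 and 13.2 RPM in the control and exposed groups at 1 yr. Its log2 differences were 0.82 at 53 mGy/h and -0.65 at 1 yr, with FDRs of 0.00151 and 6.44e-06 in the authors' deposited table. The pi-class gene gstp1, whose ID is paired with gstp1.2, was not called at 0 yr, with 49.2, 48.1 and 53.8 RPM in the control, 8.7 and 53 mGy/h groups, and fell from 25.1 to 18.2 RPM at 1 yr. That log2 difference of -0.46 has an FDR of 0.00197 in the authors' deposited table.

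The regulators included 1 gene of the Nrf2 family that rose and 1 that fell at 53 mGy/h. The gene nfe2l2b, a zebrafish copy of the gene for Nrf2, rose from 0.84 to 2.77 RPM, a log2 difference of 1.73 with an FDR of 0.000236 in the authors' deposited table, and was listed in no other table. The same control libraries served at 8.7 mGy/h (0 yr), where it was not listed. Its listing at 53 mGy/h may thus rest on the level in the exposed group, and this was not tested. The level in the control corresponds to a geometric mean of at least 23.3 reads per library, which gives the difference a counting standard error of 0.23. The related gene nfe2l3 fell from 26.7 to 18.2 RPM, a log2 difference of -0.56, and stood at 25.5 RPM at 8.7 mGy/h (0 yr) and at 27.6 and 28.7 RPM in the control and exposed groups at 1 yr. The gene nfe2l1b, listed at 1.12 to 1.75 RPM over the 5 groups, was not called. The paralogue of nfe2l2b, nfe2l2a, was not listed under that symbol in any comparison and is not analysed here.

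Keap1 has a pair of copies in the zebrafish. The gene keap1b stood at 25.3, 26.0 and 27.6 RPM in the control, 8.7 and 53 mGy/h groups at 0 yr and rose from 26.7 to 32.2 RPM at 1 yr, a log2 difference of 0.27 with an FDR of 0.00114 in the authors' deposited table. Its whole span lies inside that of ap1m2 on the opposite strand, which fell in the same comparison with a log2 difference of -0.38. The copy keap1a was at 1.24, 1.35 and 2.05 RPM in the control, 8.7 and 53 mGy/h groups at 0 yr, without a call, and was not listed at 1 yr.

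Of the classic Nrf2 targets nqo1 and hmox1a, nqo1 was called at 1 yr and hmox1a was not called. The constitutive heme oxygenase genes hmox2a and hmox2b are grouped with them here by symbol only. The other antioxidant genes were not sorted by whether Nrf2 switches them on. The quinone reductase gene nqo1 stood at 6.37, 8.43 and 4.81 RPM in the control, 8.7 and 53 mGy/h groups at 0 yr and rose from 14.5 to 22.8 RPM at 1 yr. This log2 difference of 0.65 was the highest of any antioxidant gene at 1 yr, and its FDR in the authors' deposited table is 8.29e-10. The highest of its 5 levels was that at 8.7 mGy/h (1 yr) and the lowest that at 53 mGy/h. Its span in GRCz10 is 56401843 to 56420909 on chromosome 7.

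The level of hmox1a, whose product breaks down heme, was 0.78 RPM in the 0 yr control and 2.04 RPM at 53 mGy/h, a log2 difference of 1.39 with a counting standard error of 0.25 and an FDR of 0.0544 in the authors' deposited table. At 1 yr it was at 0.84 and 1.28 RPM in the control and exposed groups, also without a call. The constitutive heme oxygenase genes hmox2a and hmox2b were not called, with log2 differences between -0.10 and 0.35. Over the regulators, nqo1 and the heme oxygenase genes together, 1 of 9 rose and 1 fell at 53 mGy/h. Of all genes there, 22.1% rose and 21.5% fell. At 1 yr 2 of 7 rose and none fell, where 20.0% of all genes rose and 22.4% fell.

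**Figure D3:**
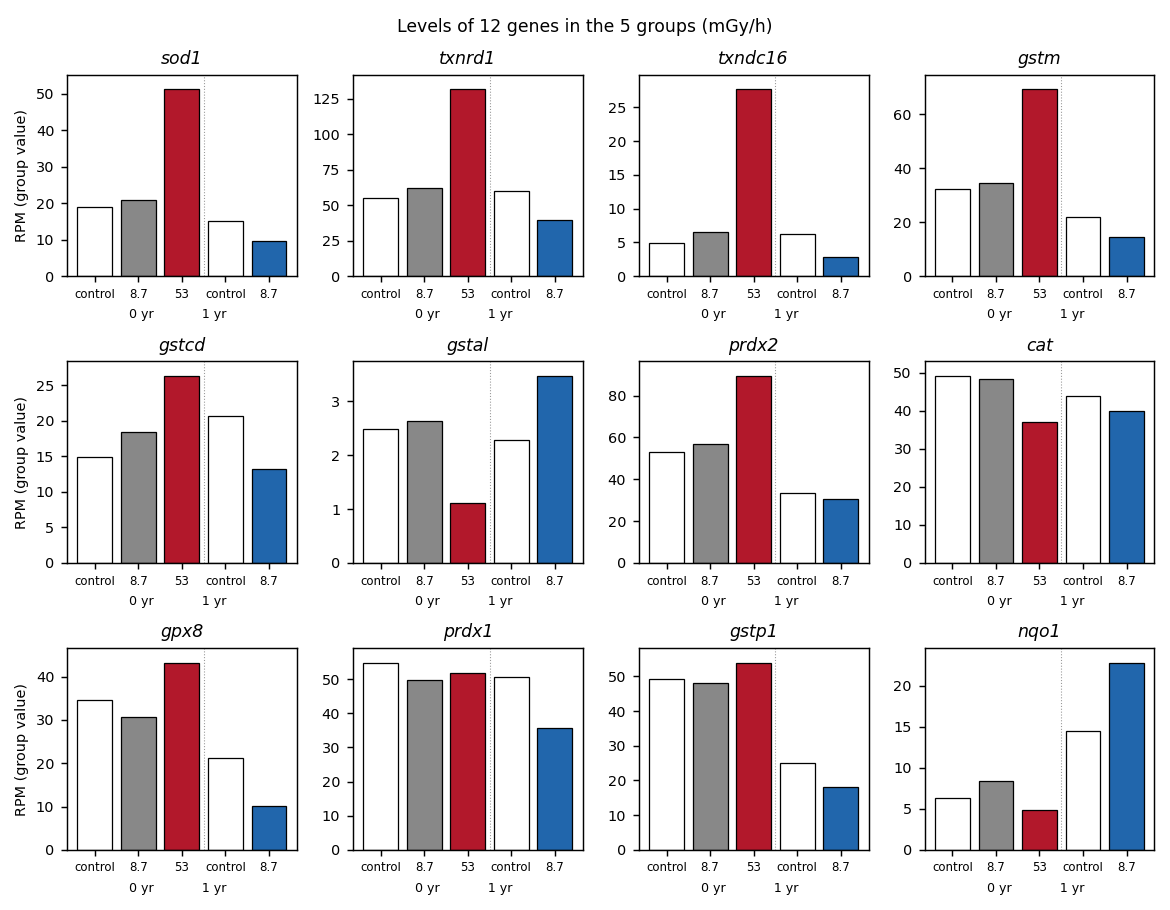
Group values in RPM (bars, from 0) of 12 antioxidant genes in the control, 8.7 mGy/h and 53 mGy/h groups at 0 yr and the control and 8.7 mGy/h groups at 1 yr, separated by a dotted line. The bars carry no error because the tables hold 1 value per group. The bars of sod1, txnrd1, txndc16, gstm and gstcd are highest at 53 mGy/h, where sod1 is at 51.2 RPM, and those of gstal and nqo1 are highest at 8.7 mGy/h (1 yr), where nqo1 is at 22.8 RPM.

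The comparisons at 53 mGy/h (0 yr) and 8.7 mGy/h (1 yr) use separate controls and can be set side by side. Among the 47 antioxidant genes in both tables, 6 were called in both, and all 6 in opposite directions. The genes sod1, txnrd1, txndc16, gstm and gstcd rose at 53 mGy/h and fell at 1 yr, and gstal fell at 53 mGy/h and rose at 1 yr. These 6 are 54.5% of the 11 genes called at 53 mGy/h and 46.2% of the 13 called at 1 yr, beside 57.2% and 61.4% over all genes. Over all genes in both tables, 3144 were called in both and 97.6% of those were opposite in direction, so the antioxidant genes here showed what nearly all genes called in both did. The difference between the comparisons was not tested, since the tables give no standard error.

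Of the genes called in both, none was called at 8.7 mGy/h (0 yr). The log2 differences there were 0.14 (sod1), 0.17 (txnrd1), 0.40 (txndc16), 0.09 (gstm) and 0.30 (gstcd). These are the 5 that rose at 53 mGy/h and fell at 1 yr. That of gstal, which fell at 53 mGy/h, was 0.08. Both 0 yr differences are taken from the same control libraries, so a like sign in the 2 is not a separate result. The calls made in a single comparison were those of prdx2, cat, txn2, txnl1, nfe2l2b and nfe2l3 at 53 mGy/h and those of gpx8, prdx1, gstp1, gpx1a, gpx4a, keap1b and nqo1 at 1 yr. Of these only nfe2l2b was not listed in the other table. A call in one comparison and not in another does not show that the differences were unequal.

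**Figure D4:**
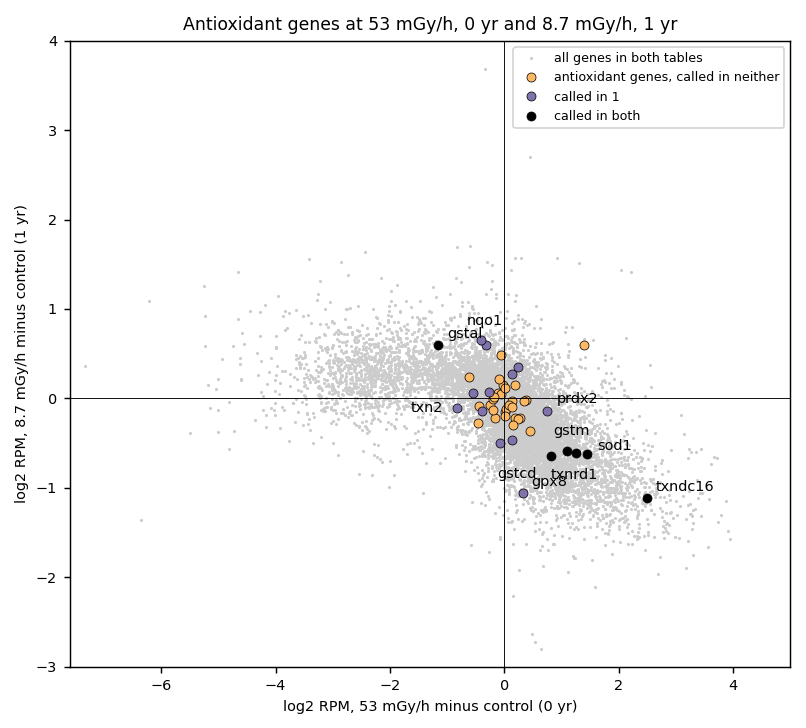
Log2 RPM of 8.7 mGy/h minus control embryos at 1 yr (vertical axis) against that of 53 mGy/h minus control embryos at 0 yr (horizontal axis). Grey points are all genes listed in both tables, orange, purple and black circles antioxidant genes called in neither, 1 or both. The 6 black circles lie in the upper left (gstal) and lower right quadrants, where the grey points are also dense.

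The control embryos of the broods were not at the same levels. Between the 0 yr and 1 yr controls, which come from separate tables and were not tested against each other, the median log2 difference of the 47 antioxidant genes was -0.18, beside -0.20 for all 12154 shared genes. It was at least 1 in size for 2 of the 47 (4.26%) and for 8.38% of all genes. The 2 were nqo1, at 6.37 RPM in the 0 yr control and 14.5 RPM in the 1 yr control, and prdx6, at 49.2 and 21.9 RPM. The level of gstp1 was 49.2 and 25.1 RPM in the same order. For nqo1 the log2 difference between the controls, 1.18, was larger than that of 0.65 between exposed and control embryos at 1 yr.

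Other genes of glutathione, NADPH, selenoprotein, metal and redox metabolism were taken from a list of 107 symbols that are not part of the group. At 53 mGy/h 14 of 66 listed genes rose and 9 fell, where 22.1% of all genes rose and 21.5% fell. At 1 yr 15 of 63 rose and 14 fell, where 20.0% of all genes rose and 22.4% fell. None of 65 was called at 8.7 mGy/h (0 yr), where 0.294% of all genes were. The largest rises at 53 mGy/h were those of chac2, which encodes an enzyme that degrades glutathione, from 0.98 to 5.51 RPM, and of the transferrin receptor gene tfr1b from 4.50 to 21.1 RPM. The largest falls were those of duox, which encodes an enzyme that makes hydrogen peroxide, from 7.84 to 1.56 RPM, and of slc3a2b, a subunit gene of amino acid transporters including that for cystine, from 58.7 to 16.2 RPM. In the 1 yr comparison duox rose from 18.1 to 23.1 RPM, slc3a2b stood at 111 RPM in control and 147 RPM in exposed embryos, also a rise, and tfr1b fell to 2.74 from 4.87 RPM.

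The selenoprotein and methionine sulfoxide reductase genes on that list rose at 1 yr in 9 of 12 cases and fell in none, beside 20.0% of all genes that rose and 22.4% that fell. Their median log2 difference was 0.25, beside -0.09 for all genes. At 53 mGy/h none of 13 was called, where 43.6% of all genes were. This part of the wider list was set apart after the values were seen, and it was not tested against other genes. Every other part of the list had falls at 1 yr. The largest rises at 1 yr were those of the selenium transport protein gene sepp1a, from 0.71 to 1.71 RPM, and of the selenoprotein gene selm, from 2.16 to 3.16 RPM. These levels are low. Among the 9 rises that of sepp1a alone, a log2 difference of 1.27, was at least 1.5-fold. Of all genes, 4.29% rose by that limit. The other rises lay between 0.12 (sepw2a) and 0.55 (selm) on the log2 scale. The gene sepp1a was not listed at 53 mGy/h. Its listing at 1 yr, where it is among the 9 that rose, may rest on the level in the exposed group, and this was not tested. The largest falls on the whole list at 1 yr were those of secisbp2, whose product is needed to insert selenocysteine, from 9.83 to 4.58 RPM, and of the kinase gene fyna, from 22.12 to 10.45 RPM. At 53 mGy/h secisbp2 rose from 14.4 to 22.1 RPM. Of the selenoprotein genes in the group itself, gpx1a and gpx4a rose, txnrd1 fell, and gpx1b and gpx4b were not called at 1 yr.

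Of the 51 antioxidant genes, 10 have a span that overlaps another listed gene, 8 of them on the opposite strand. At 53 mGy/h 2 of the 7 genes that rose and 1 of the 5 that fell were among these. At 1 yr they were 4 of the 5 that rose, namely gpx1a, gpx4a, gstal and keap1b, and 2 of the 8 that fell. The remaining rise was that of nqo1. The share of all genes with such an overlap was not computed, so these counts have no background beside them. Of the partners at 1 yr, polr2eb rose with gpx4a, ap1m2 fell where keap1b rose, and brk1 was not called. What the overlaps add to the differences was not tested. The overlap of gstal with TMEM14A, on the opposite strand, is 218 bases, and TMEM14A was not called in any comparison.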

How the data were processed

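The 14 non-directional mRNA libraries fall into 5 groups by their labels. Per the submitters' processing notes, which give no roles, the genome build was GRCz10 and the tools used were STAR 2.5.2b, Trim Galore 0.4.2, DESeq2 and FastQC 0.11.5. The test behind the FDR is not given in the sources used here. Each of the 3 deposited tables sets an exposed group against its control, and its values were, per the file headers, log2 RPM and RPM of each group, the ratio of exposed to control, a signed fold score and the FDR, an adjusted p-value. The RPM of the listed genes sum to 484878 to 494359 per group, and a gene absent from a table is not analysed there. The 2 tables at 0 yr had identical control values for all 13197 shared genes.

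The log2 difference was taken from the deposited log2 columns, and calls from the deposited FDR under 0.05, with no test refitted. Depth was recovered by taking each group's log2 RPM as the mean over libraries, so that the RPM, raised to the power of the library number, is a whole number of reads multiplied over libraries. Of the 150 lowest values from 0.4 RPM upward, 100% were whole to within 0.04 with the labelled number of libraries and in 17.3 to 24.7% with the wrong one, and the smallest depth that fits is given. Reads from it are thus lower limits and counting standard errors upper limits, and they cover counting error only. Of the gene IDs at 53 mGy/h, 95.0% had an entry in the table of gene names. Each test planned per library was replaced by the deposited FDR. Described by name are all 19 genes called in any comparison and 15 others fixed by symbol, and of the wider list the largest rises and falls. The uncalled txnipa, gpx1b, gstm3, gstt1a, hmox2a and hmox2b, the genes tfr1b, duox and slc3a2b at 1 yr and secisbp2 at 53 mGy/h, the overlapping genes and the symbols found by ID were chosen after their values were seen. The separate account of the selenoprotein and methionine sulfoxide reductase genes was also chosen then. The members and lists were chosen with earlier results of these data known. Calculations used Python 3.11.15, numpy 2.4.6, pandas 2.3.3 and matplotlib 3.10.9, and the counting of calls was tested on a made table.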

Additional observations from a re-analysis of the deposited data

How the results depend on the processing

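The counts of falls at 53 mGy/h (5) became 9 at an FDR of 0.1, 2 with at least 1.5-fold, 1 with at least 2-fold and 3 at a mean of at least 10 RPM. The counts of rises at 1 yr (5) became 3 at an FDR of 0.01, 3 with at least 1.5-fold, 0 with at least 2-fold, 2 at a mean of at least 10 RPM and, in a setting added after seeing the data, 1 without the genes that overlap others. The falls at 1 yr (8) became 2 with at least 2-fold. The median log2 difference at 53 mGy/h (0.09) became -0.031 relative to the median of all genes and -0.037 relative to genes with an FDR above 0.9, the latter also added later, so its sign rests on the scaling. The other 81 recomputed counts and medians stayed within 1.5 times or within 0.1 on the log2 scale. Within that limit a median near 0 could change sign. That at 8.7 mGy/h (0 yr), 0.02, became -0.031 at a mean of at least 10 RPM. At 1 yr the median of -0.085 lay beside -0.090 for all genes. Among the 34 antioxidant genes named by rule no called one changed direction relative to the median of all genes. No paired analysis was possible because the tables hold 1 value per group, and for the same reason leaving out single libraries was not run. Low levels such as those of nfe2l2b and hmox1a in the 0 yr control rest on a geometric mean of at least 23.3 and 21.6 reads per library. The spread between libraries is unknown.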
